A study of Mus musculus with 12 samples.

Results

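Polysome association was followed here as the change that Torin1 brought to the polysome share of each mRNA beyond its change in total mRNA. For every gene it is the log2 difference between Torin1 and DMSO in polysome mRNA minus the same difference in total mRNA, an interaction of drug and fraction, so a negative value means that its change in polysome mRNA lay below its change in total mRNA. All 12 libraries of the series enter it, and all 20240 genes with enough signal were tested, out of 53351 in the deposited table. The rule uses no measured value.

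The cells were primary neural progenitor cells of wild-type mice, dissociated from the cortex of E13.5 embryos and kept overnight with bFGF and EGF. All groups share this origin. The 4 groups of 3 biological replicates are total mRNA from DMSO cells, total mRNA from Torin1 cells, polysome mRNA from DMSO cells and polysome mRNA from Torin1 cells. DMSO is the solvent control, and Torin1 was given at 250 nM for 2 h. Every culture then received cycloheximide at 100 ug/ml for 5 min, which stalls ribosomes on their mRNA. From each lysate 10% was set aside as the total mRNA, and the polysome mRNA came from sucrose gradient fractions with more than 3 ribosomes per mRNA. The strain and whether a replicate was 1 embryo or a pool were not stated in the labels, so p-values measure only the spread between these samples, which may be technical.

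Torin1 blocks the active site of mTOR, the kinase that couples growth factors and amino acids to protein synthesis. Its complex mTORC1 phosphorylates the eIF4E-binding proteins, which otherwise keep the cap-binding factor eIF4E from starting translation, as well as S6 kinase and the RNA-binding protein LARP1. The mRNAs known to depend most on mTORC1 begin with a C followed by a run of pyrimidines, the 5' terminal oligopyrimidine (TOP) motif, and encode ribosomal proteins, elongation factors and other parts of the translation machinery. In the developing cortex this pathway bears on the growth and differentiation of progenitors.

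Column totals of the deposited table ran from 14341674 to 19201406 and do not count reads, and with the depth unknown no counting interval is given. Values below are scaled to a parts-per-million scale of each library (ppm). They compare a gene between groups and not one gene with another, since a correction for length is not stated. All are relative to the library, so a loss of polysomes as a whole was not measured. Replicates of a group correlated at 0.975 to 0.992 (Pearson's r across the 9222 expressed genes, those with a mean log2 ppm of at least 3, which are not independent replicates). Progenitor markers were present, with Pax6 at 51.9 ± 6.34 and Sox2 at 107.5 ± 2.34 ppm in total DMSO (SD, n = 3), but so was the neuronal Tubb3, at 1005 ± 39.4 ppm, and Olig2, at 45.5 ± 1.09 ppm. The interneuron genes Dlx2 and Gad2 were at 23.9 ± 1.45 and 17.4 ± 1.7 ppm. The haemoglobin gene Hbb-bs was at 339.7 ± 15.6 ppm, and the microglial Cx3cr1 at 0.795 ± 0.461 ppm. The astrocyte gene Aqp4 was at 0.218 ± 0.11 ppm. Of 109 cell type markers tested 0 passed in the interaction (limma, 0.726% of all genes tested did), with a median of 0.01. In total mRNA 28 of them were called higher with Torin1 and 0 lower (3.04% and 4.35% of all genes tested were), and in polysome mRNA 31 higher and 1 lower (4.57% and 5.45%). The summed intermediate progenitor markers went from between 360 and 365 ppm in total DMSO to between 503 and 504 ppm in total Torin1, and the part of such shifts in the results below was not tested.

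A small set of mRNAs lost polysome share with Torin1, and most of the named ones belong to the translation machinery. In limma's moderated test with Benjamini-Hochberg adjustment, 147 of 20240 genes had an adjusted p under 0.05 in the interaction (0.726%), of which 143 were lower with Torin1 (0.707%) and 4 higher (0.0198%). Scaled by the column total alone, the calls were 119 lower and 32 higher. Of these 147, 67 were cytosolic ribosomal protein genes, 27 were named copies or paralogs of ribosomal protein genes or of Tpt1, 28 were predicted genes with a Gm number and 25 were other genes. Before adjustment 626 genes were lower and 566 higher at a p under 0.05. The median of all 20240 genes was 0.03. Among expressed genes 96.2% lay within 0.5 of their median of 0.03, with an SD over genes of 0.30 and a median standard error of 0.15.

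Most of these genes were called in the polysome fraction alone, which does not show that their total mRNA held still. Of the 143 genes that fell in the interaction, 134 were lower in polysome mRNA and not called in total mRNA, 6 were lower in polysome and higher in total mRNA, and 3 were higher in total mRNA alone. For comparison, limma called 2028 genes in polysome mRNA (10.0%), 1103 lower (5.45%) and 925 higher (4.57%), and 1496 in total mRNA (7.39%), 881 lower (4.35%) and 615 higher (3.04%). Of the 135 called genes that were expressed, 133 fell.

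**Figure D1:**
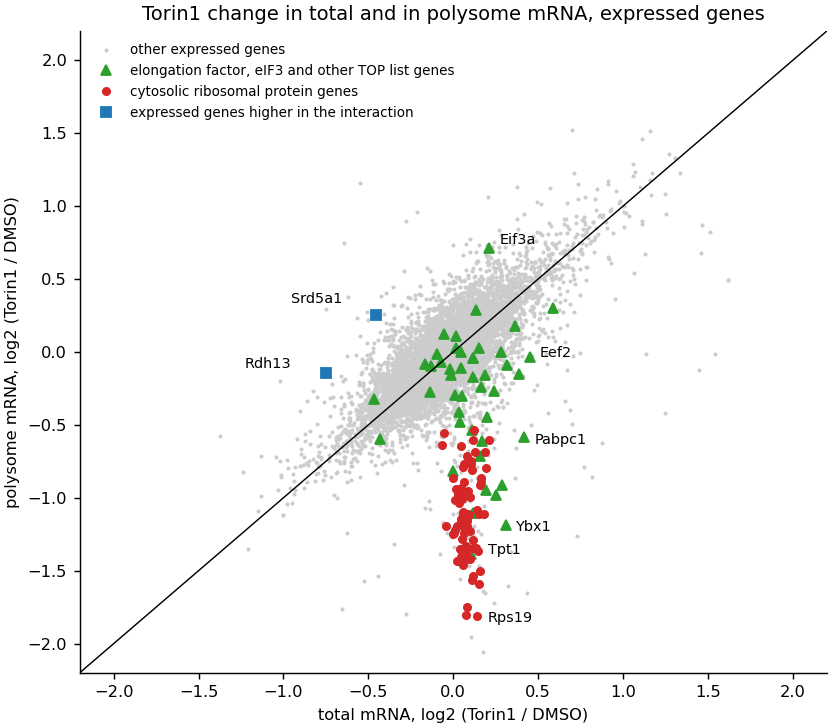
Torin1 change of the expressed genes in total mRNA (x axis, log2) and in polysome mRNA (y axis, log2), with the line of equal change. Ribosomal protein genes (red) lie near 0 on the x axis and between -1.81 and -0.54 on the y axis, Srd5a1 and Rdh13 (blue) lie left of the line, and 8 expressed genes fall outside the axes.

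The calls rest on few samples. Leaving out replicate number 1 from all 4 groups ended every call, with a lowest adjusted p of 0.0887, although every ribosomal protein gene stayed negative, with a median of -1.11. Leaving out polysome Torin1 replicate 3 raised the calls to 225. Of the 147 genes, 99 were called in each of the 12 fits without 1 library, among them 51 of the 67 ribosomal protein genes. The protocol splits each lysate into total and polysome mRNA, though the labels do not say that a shared number marks 1 lysate. With the 2 libraries of a number taken as such a pair (replicate block, limma), 91 genes were called, all lower, among them 48 ribosomal protein genes and 90 of the 147.

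The cytosolic ribosomal protein genes encode the structural proteins of both ribosomal subunits. Of 79 listed and tested genes 67 fell in the interaction (0.707% of all genes tested did) and 0 rose, and all 79 had a negative value (75 of 79 with quantile normalization), with a median of -1.22 against 0.03 for all genes. The list was chosen with its fall in polysome mRNA of these libraries known, so its direction is not independent evidence. The small subunit list had 30 of 32 lower, with a median of -1.28, and the large subunit list 37 of 47, with a median of -1.16. In total mRNA the 79 genes had a median log2 change of 0.07, and 0 of them were called there in either direction. The total Torin1 and total DMSO ranges overlapped in 39 of the 79 genes. In the rest they lay apart, in both directions, with Rps19 higher and Rpl27 lower with Torin1. This count was not made over all genes tested, so it does not set these genes apart. In polysome mRNA the median was -1.16. For 78 of the 79 genes, 98.7%, every polysome Torin1 library lay below every polysome DMSO library, against 2483 of all 20240 genes, 12.3%.

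Together these 79 genes took 12.8, 12.9 and 12.8% of the signal in the total DMSO libraries and 13.7, 12.5 and 13.7% in the total Torin1 libraries. In polysome mRNA they took 19.7, 17.5 and 20.0% with DMSO and 10.3, 9.61 and 11.4% with Torin1. The polysome groups did not overlap, while total DMSO lay within the range of total Torin1. Polysome DMSO replicate 2 was the lowest of its group in 76 of the 79 genes, and polysome Torin1 replicate 3 the highest of its group in 71 of 79.

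**Figure D2:**
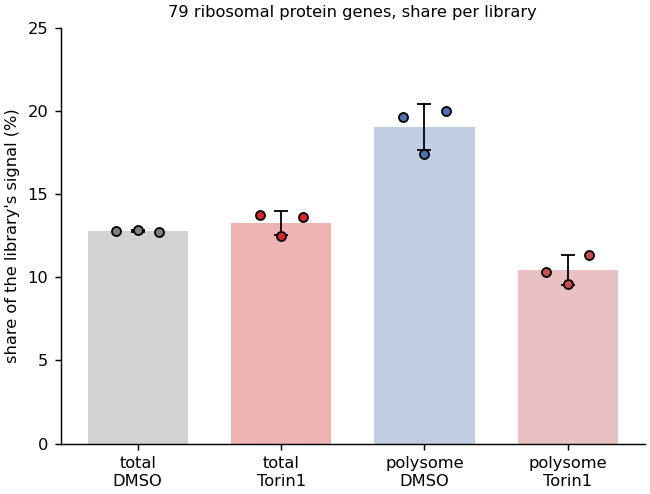
Share of each library's signal that fell on the 79 ribosomal protein genes (y axis, %), by group (x axis). Points are the 3 libraries, bars the mean and whiskers the SD; polysome Torin1 libraries lie between 9.61 and 11.4%, below all others.

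The ratio of polysome to total signal states the same change as a level. Scaling sets this ratio near 1 for a typical mRNA, so it ranks mRNAs and does not count ribosomes. The 79 genes had a median ratio of 1.91 with DMSO, with quartiles of 1.63 and 2.32, and of 0.807 with Torin1, with quartiles of 0.697 and 1.04. Expressed genes as a whole had medians of 1.08 and 1.09. With DMSO 76 of the 79 genes were above 1, and with Torin1 24 were. The median ribosomal protein mRNA went from above the median expressed mRNA to below it.

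The fall was largest for 4 small subunit genes. Rps19, whose protein is mutated in Diamond-Blackfan anaemia, lies on chromosome 7 from 24884592 to 24889811 (GRCm38.p6). It had 715, 720.5 and 714.1 ppm in total DMSO and 811, 766.9 and 795.2 ppm in total Torin1. Its polysome values were 1360, 1040 and 1411 ppm with DMSO and 356.8, 294 and 438.3 ppm with Torin1. All 3 polysome Torin1 libraries were lower than any other library of this gene. Its ratio of polysome to total went from 1.77 to 0.459, a change of -1.96 ± 0.20 (log2, standard error; limma, adjusted p = 0.000386).

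Rps12, on chromosome 10 from 23785183 to 23787383, behaved alike, with 3342, 2759 and 3509 ppm in polysome DMSO and 907.7, 854.5 and 1097 ppm in polysome Torin1. In total mRNA its 6 libraries stayed between 2090 and 2268 ppm. The change was -1.83 ± 0.16 (limma, adjusted p = 0.000272). Rps27, on chromosome 3 from 90212667 to 90213648, had 7457, 5185 and 7686 ppm in polysome DMSO and 1920, 1532 and 2384 ppm in polysome Torin1, a change of -1.88 ± 0.24 (limma, adjusted p = 0.00221). Rps7 changed by -1.74 ± 0.23 (limma, adjusted p = 0.00239).

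At the other end 12 of the 79 genes missed the threshold. They were Rpl35a, Rpl22, Rpl24, Rpl11, Rps15, Rps3, Rpl38, Rpl7, Rplp1, Rpl19, Rpl27 and Rpl41, with estimates from -1.16 to -0.50. The 67 members that passed ran from -1.96 to -0.66. Most of the 12 lay within that range, but all were nearer 0 than the median of the 79 genes, -1.22. Their standard errors ran from 0.15 to 0.26. Rpl41, which encodes the shortest ribosomal protein, had the value nearest 0. It had 2701, 2924 and 2624 ppm in total DMSO and 2778, 2573 and 2592 in total Torin1. Its polysome mRNA was at 5055, 3302 and 5172 ppm with DMSO and 3242, 2371 and 3561 with Torin1. It is the 1 ribosomal protein gene whose polysome groups overlapped, through the low DMSO replicate 2 and the high Torin1 replicate 3. Its change of -0.50 had a 95% interval from -1.06 to 0.06 (limma, adjusted p = 0.909). Rpl27 had -0.57, with an interval from -0.89 to -0.25 (limma, adjusted p = 0.203).

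**Figure D3:**
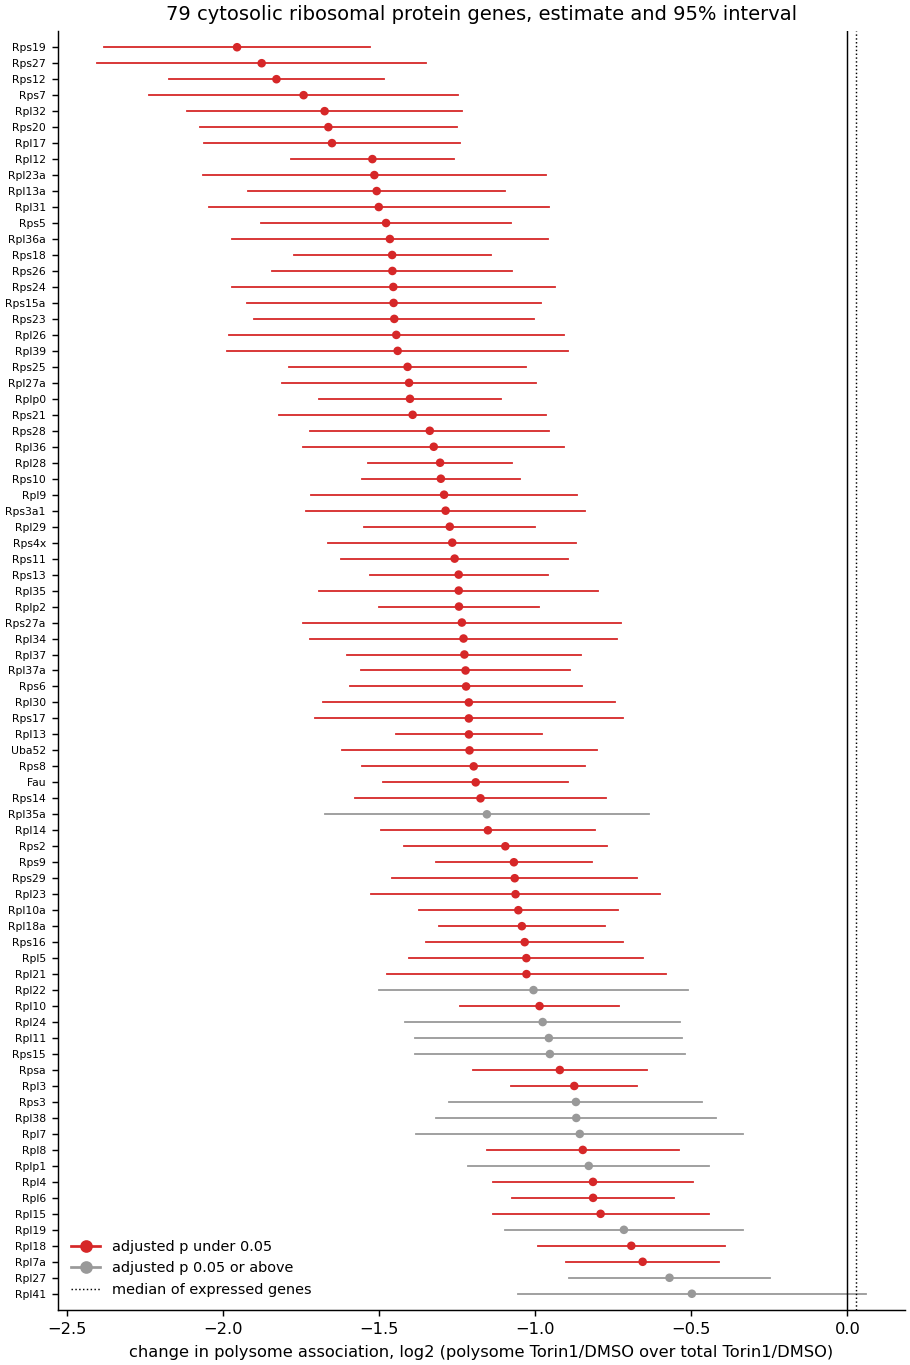
Change in polysome association (x axis, log2) of each of the 79 ribosomal protein genes (y axis) with its 95% interval. Every estimate is below 0 in this scaling (75 of 79 with quantile normalization), from -1.96 for Rps19 to -0.50 for Rpl41, and 12 genes (grey) had an adjusted p of 0.05 or above.

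Ribosomal protein genes have many processed copies, and near-identical copies can share reads, so values of single genes are uncertain. Of the 147 called entries 44 are pseudogenes of some kind in RefSeq, and 7 entries share 2 profiles of values, the largest set being 5 copies of Rpl35a. The 147 entries therefore hold 142 distinct profiles. Among expressed copies and paralogs that code for protein some fell and others did not pass. Rpl22l1, a paralog of Rpl22, had 387.7, 263.3 and 393.1 ppm in polysome DMSO and 108.9, 101.1 and 172.7 ppm in polysome Torin1, a change of -1.62 ± 0.26 (limma, adjusted p = 0.0113). Rps27rt had -1.97 ± 0.27, a call lost with the paired block, and can share reads with Rps27. Rpl37rt had -1.56 ± 0.15 (limma, adjusted p = 0.000377) and was called in all 12 fits without 1 library. Rpl7l1 had 0.03 and Rps27l had -0.14, and neither passed (limma, adjusted p = 1.00 for both).

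The TOP motif was looked for in the RefSeq start windows of GRCm38.p6. A tract was a C followed by at least 4 pyrimidines (C or T), on the strand of the transcript, beginning within 10 bases of the annotated start. Below are windows of 10 bases before and 20 from the start, the longest tract in capitals, for called ribosomal protein genes and other called genes that have one:

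Rps27: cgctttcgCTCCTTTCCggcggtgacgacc

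Rps12: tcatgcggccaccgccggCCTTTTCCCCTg

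Rps6: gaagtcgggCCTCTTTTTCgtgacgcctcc

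Rpl22l1: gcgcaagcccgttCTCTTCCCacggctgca

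Rack1: gccgCTCTTTCTTTTTCTCCacagggtcgt

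Eif3f: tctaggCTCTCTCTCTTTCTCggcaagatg

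Eef1a1: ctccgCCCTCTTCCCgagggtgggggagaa

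Cox7a2l: ggggaagccgggtCCTTTTCTagggcggtc

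Atp5g2: gcgcccccgCCCCTCTCTgtcttctctgcc

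Srd5a1: ggttttacccaatcgttCTCTCgtttggat

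These windows lie at chr3:90213629-90213658, chr10:23787190-23787219, chr4:86857348-86857377, chr3:28805498-28805527, chr11:48800350-48800379, chr7:108934405-108934434, chr9:78481705-78481734, chr17:83514314-83514343 and chr15:102671028-102671057, in the order printed, and the last at chr13:69611444-69611473. Rpl22l1, Rack1 and Eif3f are on the plus strand and the other 7 on the minus strand. A window can hold a second, shorter tract, as the lower case letters show, and Srd5a1 is the 1 gene of these that rose. The next 4 called genes hold no tract in the window (for Wsb1 the first of 2 annotated starts is shown), which says only that these letters are not there, since the start used in these cells was not measured:

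Tpt1: cgctgacgacagttccgggggagccgcgga

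Ybx1: ccgcccgtcccgccattctcgctagttcga

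Ccni: ggccgaaatcagtccgcgagggcggggcta

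Wsb1: agatattatcagtgccgcccgccatcttgt

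They lie at chr14:75845246-75845275, chr4:119294494-119294523, chr5:93206476-93206505 and chr11:79254676-79254705, Tpt1 on the plus strand and the others on the minus strand. The Ybx1 window, like those of Rps12 and Srd5a1, lies inside the span given here for its gene and not at the outer end of that span. Of the 66 expressed genes that were called lower and have a window, 40 hold a tract, 60.6% (Wilson 95% interval 48.5 to 71.5%), against 2654 of 7126 expressed genes, 37.2%, and 10093 of all 32851 windows, 30.7%. Tracts of at least 8 bases stood in 40.9% of the called genes and in 10.5% of expressed genes. Most of the called genes are ribosomal protein genes, of which 35 of 58 hold a tract, 60.3%. Without them and their paralogs 7 of 16 called genes do, 43.8% (Wilson 95% interval 23.1 to 66.8%), against 37.0% of the other expressed genes. Tracts of at least 8 bases stood in 5 of these 16, 31.2%, against 10.3% of the other expressed genes. Tracts within 5 bases of the start stood in 43.8% (Wilson 95% interval 23.1 to 66.8%) against 23.8%. Within 25 bases the shares were 62.5% (38.6 to 81.5%) and 59.7%.

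Outside the ribosomal proteins the tract classes had nearly equal medians. Expressed genes outside the ribosomal protein genes and their paralogs had a median change of 0.04 with no tract (4447 genes). The median was 0.02 with tracts of 11 or more bases (235 genes). In these 2 classes 9 and 2 genes were called lower, 0.202% and 0.851%. With tracts of 5 to 6, 7 to 8 and 9 to 10 bases 2, 1 and 2 genes were, 0.129, 0.175 and 0.778%. The counts are small, and a difference between these shares was not tested. Among ribosomal protein genes the 35 with a tract had a median of -1.30, from -1.96 to -0.66, and the 23 without one had -1.06, from -1.45 to -0.50. The ranges overlap, and this difference was not tested.

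Beyond the ribosomal proteins, 46 genes of the elongation factors, the eIF3 subunits and other mRNAs described as TOP were tested. Of these, 10 fell and 0 rose in the interaction (0.707% and 0.0198% of all genes tested did). Of the 46, 35 were negative, with a median of -0.28 against 0.03 for all genes. When only the column total was used for scaling, which moved the median of all genes from 0.03 to 0.29, 6 fell and 1 rose and the median was -0.01. In that scaling the ribosomal protein genes had 65 lower and a median of -0.95.

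Elongation factors carry the ribosome along the mRNA, and 3 of 13 fell (0.707% of all genes tested did). Eef1a1, which delivers aminoacyl-tRNA to the ribosome (chromosome 9, 78478453 to 78481724), had 6150, 6281 and 6141 ppm in total DMSO and 7786, 7309 and 7628 in total Torin1. In polysome mRNA it had 6684, 6711 and 6667 ppm with DMSO and 3226, 3394 and 4099 with Torin1. Its total mRNA was thus higher and its polysome mRNA lower in every Torin1 library, a change of -1.20 ± 0.16 (limma, adjusted p = 0.00239). The log2 change of 0.29 in total mRNA alone was not called (limma, adjusted p = 0.149). Eef1b2 and Eef1g, subunits of the exchange factor that recharges the Eef1a1 protein, had -1.22 ± 0.15 and -0.87 ± 0.11 (limma, adjusted p = 0.00139 and 0.00149). Eef1d, another subunit of that factor, had 0.01 ± 0.10 (limma, adjusted p = 1.00).

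Eef2, which moves the ribosome on by 1 codon, took another course (chromosome 10, 81176631 to 81182509). It had 1166, 1189 and 1146 ppm in total DMSO and 1665, 1518 and 1609 in total Torin1, and limma called it higher there (adjusted p = 0.00957). In polysome mRNA it had 776.2, 804.2 and 780.5 ppm with DMSO and 877.9, 749.7 and 691.6 with Torin1, ranges that overlap. Its change of -0.48 ± 0.12, with a 95% interval from -0.75 to -0.22, missed the threshold (limma, adjusted p = 0.191).

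The eIF3 complex is the scaffold that joins the small subunit to the mRNA, and 3 of its 14 genes fell (0.707% of all genes tested did). With the replicate block of paired libraries 1 fell, Eif3f. Eif3f (chromosome 7, 108934415 to 108941942) had 119.1, 121.5 and 130.7 ppm in polysome DMSO and 71.52, 66.56 and 51.37 in polysome Torin1, against 144 to 206.3 ppm in the 6 total libraries. It changed by -1.23 ± 0.16, Eif3h by -0.65 ± 0.10 and Eif3k by -0.64 ± 0.12 (limma, adjusted p = 0.00247, 0.00791 and 0.0376). Eif3a, the largest subunit, had the highest interaction of the complex. Its polysome level was 41.15, 37.72 and 37.36 ppm with DMSO and 55.23, 68.6 and 67.44 with Torin1, and its change was 0.50 ± 0.11 (limma, adjusted p = 0.103). Of 31 other initiation factor genes 0 passed in the interaction (limma, 0.726% of all genes tested did), with a median of -0.01.

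Of the 27 other TOP mRNAs 9 fell (0.707% of all genes tested did), counting 5 genes already given among the factors above. Of the 27, 25 were negative, with a median of -0.51. Tpt1, which encodes the translationally controlled tumour protein (chromosome 14, 75845256 to 75848303), had 1750, 1833 and 1759 ppm in total DMSO and 1975, 1870 and 1899 in total Torin1. The polysome libraries held 1802, 1562 and 1844 ppm with DMSO and 613.8, 605.5 and 779.8 with Torin1. The polysome groups were far apart, and the change was -1.49 ± 0.15 (limma, adjusted p = 0.000377). Ybx1, a cold shock domain protein that binds mRNA (chromosome 4, 119277327 to 119296265), had 890.5, 870.1 and 826.8 ppm in polysome DMSO and 371.9, 390.4 and 375 in polysome Torin1, a change of -1.497 ± 0.23 (limma, adjusted p = 0.00722). Its total mRNA varied more, from 1191 to 1765 ppm with DMSO and from 1345 to 2088 ppm with Torin1.

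Rack1, a scaffold protein on the small ribosomal subunit (chromosome 11, 48800360 to 48806241), had 1176, 1162 and 1264 ppm in polysome DMSO and 639.3, 572.6 and 654 in polysome Torin1. It changed by -1.14 ± 0.11 (limma, adjusted p = 0.000377). Pabpc1, the cytoplasmic poly(A)-binding protein (chromosome 15, 36595658 to 36609581), moved in both fractions. It had 394.3, 379.5 and 397 ppm in total DMSO and 543.4, 502.8 and 517.8 in total Torin1, and 115, 119.3 and 116.9 ppm in polysome DMSO and 69.9, 92.73 and 73.82 in polysome Torin1. Its ratio of polysome to total was low with DMSO, 0.2999, and went to 0.151, a change of -0.998 ± 0.13 (limma, adjusted p = 0.00196). Its relative Pabpc4 had -0.47 ± 0.11 (limma, adjusted p = 0.124).

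**Figure D4:**
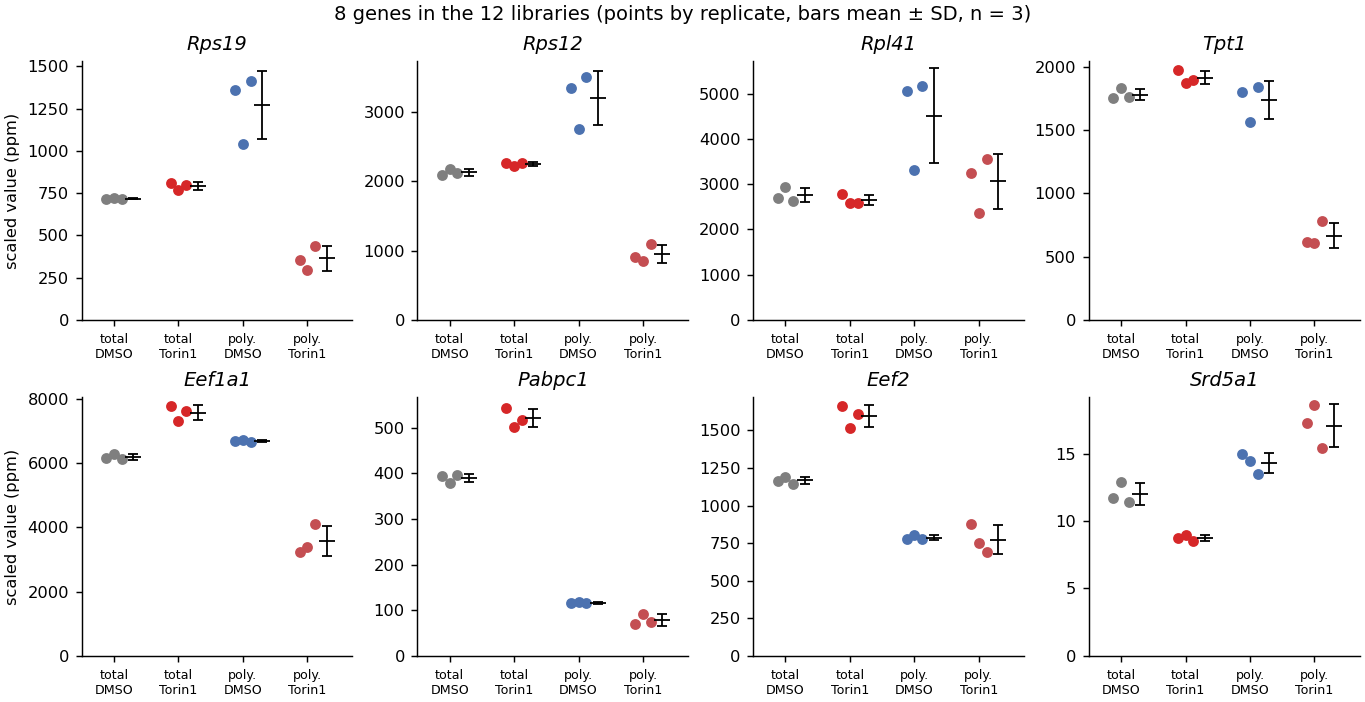
Scaled values (y axes from 0, ppm) of 8 genes in the 4 groups (x axes), with the 3 replicates as points and the mean ± SD beside them. Polysome Torin1 lies below polysome DMSO for Rps19, Rps12, Tpt1, Eef1a1 and Pabpc1, overlaps it for Rpl41 and Eef2, and lies above it for Srd5a1.

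Some genes outside the translation machinery fell too. Of 77 nuclear-encoded respiratory chain genes 2 fell, Cox7a2l and Atp5g2, 2.60% where 0.707% of all genes tested fell, and the list had a median of -0.10, which was 0.17 with the column total alone. Cox7a2l, an assembly factor of respiratory supercomplexes (chromosome 17, 83501917 to 83514333), had 115.4, 111.6 and 114.5 ppm in total DMSO and 136.6, 125.8 and 125.4 in total Torin1. In polysome mRNA it had 179.8, 160.2 and 193.4 ppm with DMSO and 89.09, 72.39 and 95.25 with Torin1, so that the polysome groups did not overlap. The change was -1.24 ± 0.14 (limma, adjusted p = 0.000997). Atp5g2, a gene of subunit c of the ATP synthase, had -0.56 ± 0.09 (limma, adjusted p = 0.0148), the smallest change among the 147. That call was lost in 5 of the 12 fits without 1 library, with a highest adjusted p of 0.0689, and with the replicate block of paired libraries.

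Ccni, which encodes cyclin I, had 253.1, 243.8 and 236.7 ppm in total DMSO and 309.4, 280.5 and 296.5 in total Torin1. The polysome libraries gave 225.3, 210.4 and 211.8 ppm with DMSO and 157.9, 154 and 148.8 with Torin1. Both fractions separated the treatments, in opposite directions, and the change of -0.76 ± 0.08 (limma, adjusted p = 0.000923) was called in all 12 fits without 1 library. Calls on the secreted phospholipase gene Pla2g12a (-1.01), the long noncoding RNA 1110038B12Rik (-0.87), the nucleoside diphosphate kinase gene Nme2 (-0.75), the Polycomb gene Pcgf1 (-0.72) and the ubiquitin ligase adaptor gene Wsb1 (-0.63) passed in limma with adjusted p from 0.0230 to 0.0473. Each of them was lost in 9 to 11 of the 12 fits without 1 library, and those on Pla2g12a, Nme2 and Pcgf1 with the paired block too.

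Of 9222 expressed genes 2 rose in the interaction, and in both total mRNA fell while polysome mRNA did not pass. Srd5a1, a steroid reductase gene (chromosome 13, 69573449 to 69611485), had 11.71, 12.89 and 11.4 ppm in total DMSO and 8.771, 8.929 and 8.483 in total Torin1. The polysome values were 14.95, 14.43 and 13.49 ppm with DMSO and 17.24, 18.58 and 15.4 with Torin1. Its change was 0.71 ± 0.13 (limma, adjusted p = 0.0302). Rdh13, a retinol dehydrogenase gene, had 22.92, 26.98 and 26.72 ppm in total DMSO and 14.24, 15.85 and 15.36 in total Torin1, while its 6 polysome libraries stayed between 20.1 and 24.41 ppm. Its change was 0.61 ± 0.12 (limma, adjusted p = 0.0464). The calls were lost in 11 and 10 of the 12 fits without 1 library and with the paired block.

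The 21 expressed Gm entries among the called genes all fell, with interactions from -2.09 to -0.56 and mean total DMSO levels from 6.43 to 769.6 ppm. Of 12 called genes that were not expressed, 8 had a group with every library listed at 0. The predicted genes Gm12571 and Gm10509 are listed at 0 in all libraries but the 3 of total Torin1, which held 5.533 to 7.099 and 3.725 to 7.424 ppm.

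In most other gene lists no gene passed, which does not show that their genes held still, since Rpl35a at -1.16 also missed the threshold. Of 44 lists, 36 had no gene called in the interaction (limma), and the 21 of those with at least 15 expressed genes had medians between -0.07 and 0.10. Over all genes tested 0.726% were called, so a count of 0 is near that share for lists of this size. Among 61 genes of mTORC1 and mTORC2, their effectors and their upstream regulators 0 passed, with a median of 0.02. Mtor itself had 0.22, with a 95% interval from -0.13 to 0.57, and the mTORC1 substrates Eif4ebp1 and Rps6kb1 had -0.05 (-0.50 to 0.41) and -0.03 (-0.40 to 0.34). Larp1, which binds TOP mRNAs, had -0.02 (-0.32 to 0.28). In total and in polysome mRNA Larp1 was called lower, with 41.06, 39.95 and 41.28 against 30.8, 31.22 and 32.74 ppm, and 22.39, 22.33 and 22.48 against 17.02, 20.14 and 14.63 ppm (limma, adjusted p = 0.0398 and 0.0255).

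Of 17 mRNAs with upstream open reading frames that respond to the integrated stress response 0 passed (0.726% of all genes tested did). Their median was 0.07. Atf4, the main effector of that response, fell in both fractions, from 290.3, 284.5 and 279.2 to 217.3, 214.5 and 215.8 ppm in total and from 371.5, 355.6 and 352.6 to 323.7, 283.2 and 296.8 ppm in polysome mRNA. Its interaction was 0.14, with an interval from -0.05 to 0.33. Myc rose in both, with polysome levels of 27.26, 30.63 and 28.91 ppm with DMSO and 56.86, 55.99 and 48.39 with Torin1, and an interaction of 0.06 (-0.20 to 0.32). The G1 cyclin gene Ccnd1 had 0.12 (-0.09 to 0.32), Actb 0.07 (-0.26 to 0.39), the progenitor gene Pax6 0.06 (-0.31 to 0.44) and the neuronal Tubb3 -0.03 (-0.29 to 0.24).

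Of 78 mitochondrial ribosomal protein genes 0 passed, with a median of -0.07 that was 0.21 with the column total alone. Of the 16 tested genes in the list of snoRNA host genes, several of them known TOP transcripts, 0 passed, with a median of 0.04. This covers the listed genes and not every snoRNA host gene. Gas5 had -0.32 (-0.74 to 0.10). In each of these lists the count of 0 is from limma's adjusted test over all 20240 genes, of which 0.726% were called.

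**Figure D5:**
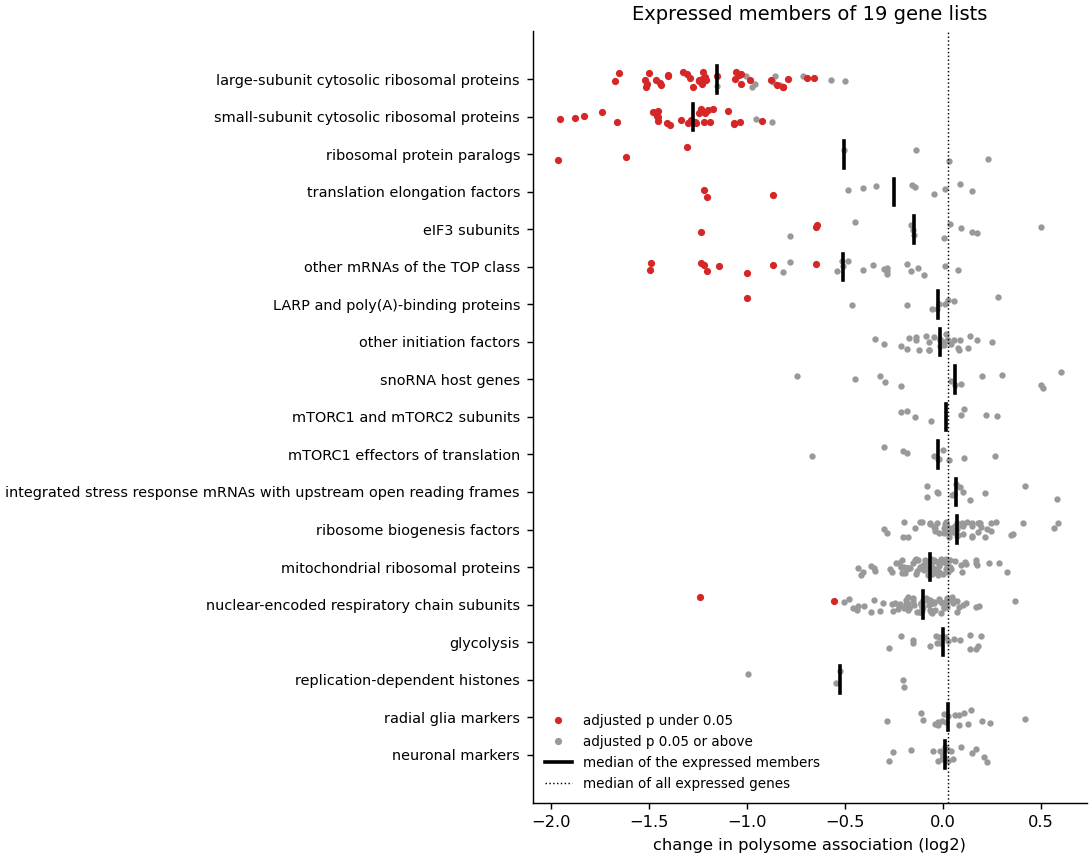
Change in polysome association (x axis, log2) of the expressed members of 19 gene lists (rows), with called genes in red, the list median as a bar and the median of all expressed genes as a dotted line. The lists of both ribosomal subunits lie to the left, with medians of -1.16 and -1.28, and mTORC1 subunits, radial glia and neuronal markers lie around the dotted line.

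Replication-dependent histone genes, whose mRNAs lack a poly(A) tail, had a median interaction of -0.62, with 21 of 23 negative and 0 called (limma, 0.726% of all genes tested were). In total mRNA their median was 1.01. Of the 23, 5 were expressed, with a median interaction of -0.52, and the rest lay below that threshold. The summed values of the 23 were 91.4, 95.7 and 107.5 ppm in total DMSO and 107.2, 349.3 and 111.2 ppm in total Torin1, so that total Torin1 replicate 2 stood apart. The noncoding Rn7sk was at 2069 ppm in that library and between 38.7 and 182.8 ppm in the 5 remaining total libraries. Leaving this library out gave a histone median of 0.02, with 11 of 23 negative, while the ribosomal protein median was -1.25.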

How the data were processed

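Total and polysome mRNA were sequenced in 12 libraries, and sample titles gave the groups. Per the submitters' processing notes the tools were HTSeq 0.6.0 and STAR 2.7.9a and the build was mm10, without roles. The table deposited by the authors holds a signal that is never negative, for 53351 genes and 12 sample columns (0 other per-sample columns). Its scaling is not stated in those sources. Its values are whole multiples (within 0.011) of a fixed share of each column and not reads, so depth is unknown.

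Columns were scaled by their totals, then by a factor from the trimmed, unweighted mean log ratio to a reference library (own code, trims of 0.3 and 0.05). Mean factors were 1.10 and 1.08 for total and 0.846 and 1.00 for polysome mRNA, DMSO first. A gene was kept where 3 or more libraries reached a deposited value of 1. limma 3.58.1 in R 4.3.3 fitted log2(scaled value + 1) to 4 group means over the 12 libraries, with variances that follow abundance, at an adjusted p of 0.05 (Benjamini-Hochberg over 20240 genes). A fold on this scale understates changes at very low values. The threshold for an expressed gene is 8 ppm on the geometric mean. RefSeq symbols of GRCm38.p6 matched 17436 of 20240 genes.

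Same-numbered samples were checked for pairing. The members and gene lists were chosen with earlier results of these data known. Genes were named by a rule: among expressed called genes whose sign held without each replicate number, and without predicted, Rik, pseudogene or accession names, the 12 largest rises and falls outside the ribosomal protein genes and paralogs, the 4 largest falls and the 2 values nearest 0 of ribosomal protein genes, from every other list the 2 largest called folds or else the member with the highest mean value, and a fixed set of 15 genes. Other names, such as Eif3a, Eif3k, Eef1g, Eef1d, Pabpc4, Rps6, Rpl7l1, Rps27l, 1110038B12Rik, Rn7sk and the uncalled ribosomal protein genes, were chosen after their values were seen. Alternatives were 5 other scalings, 3 other filters, another pseudocount, other variance models, a minimum of 1.5-fold, replicate and culture blocks, and fits without each library or replicate number.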

Additional observations from a re-analysis of the deposited data

How the results depend on the processing

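The interaction called 147 genes, 143 lower and 4 higher. Under a minimum of 1.5-fold 21 were called (21 lower and 0 higher, 9 of them ribosomal protein genes), with polysome and total libraries of one number as a replicate block 91 (91 and 0), and without replicate number 1, 2 or 3 the counts were 0, 74 and 110. Fits without 1 library gave 107 to 225 calls, with 104 to 195 lower and 1 to 30 higher, the most without polysome Torin1 replicate 3. Without a replicate number 0 to 98 genes were lower and 0 to 12 higher, and 0 to 51 ribosomal protein genes fell against 67, while 52 to 78 fell without 1 library. The 4 genes that were higher became 32 with the column total alone, 17 with quantile normalization and 17 with array weights, and 2 with a filter at 1 ppm. With the replicate number as a replicate block 147 were called (145 and 2) and 71 ribosomal protein genes fell. The labels do not say that a number marks one lysate, and deviations of polysome and total mRNA of one number correlated at -0.09 to 0.08 in 6 pairs. Deviations of same-numbered Torin1 and DMSO libraries correlated at -0.23 to 0.33. Polysome calls went from 2028 to 3240 with the column total alone, to 84 with the minimum fold and to 490 to 2715 without a library or number. Total calls went from 1496 to 841, 2961 with array weights, 8 and 87 to 2216. Among genes called in the interaction Rpl7a alone changed sign in these settings, from -0.66 to 0.0059 with quantile normalization. The tract share of 60.6% (37.2% of expressed genes) was 81.8% within 25 bases (59.9%), 51.5% within 5 (24.0%) and 43.8% (37.0%) without ribosomal protein genes and paralogs. Over the 147 called genes 3236 alternative values kept the call and 1008 lost it. The cause of these shifts was not tested. Depth in reads is unknown, so limits for low genes cannot be given. A check of protein length was not run, since no protein table was used here.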
